A study of Mus musculus with 45 samples.

Results

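The comparison described here set 2 groups of female C57BL/6 mice against each other after 8 weeks on a Western, high-fat diet that began at 8 weeks of age. The DW8 group was 5 Dhet mice (IR+/- IRS1+/- ApoE-/-), which carry 1 intact copy each of the genes for the insulin receptor and its substrate IRS1 and have no ApoE. The EW8 group was 6 ApoE-/- mice with both genes intact, so that both groups lacked ApoE and ate the same diet. The members were taken by their labels, 11 of the 45 arrays in the series, and every probe set was compared. Adipocytes were isolated from the parametrial and periovarian fat of random-fed mice, and the RNA of each mouse was hybridised to 1 Affymetrix MG430-2.0 array. The same pair of genotypes was also available after 16 weeks of Western diet (DW16, 9 mice; EW16, 8 mice) and after 16 weeks of chow (DC16, 5 mice; EC16, 5 mice), and these share no mice with the 8-week groups. In the 16-week Western pair, 7 of 9 DW16 and 3 of 8 EW16 arrays have a narrower range of values than the others. What this adds to the differences given below for that pair was not tested. The series has Dhet mice on chow for 8 weeks (DC8), which enter the fits over all 7 groups, but no ApoE-/- counterpart. There is thus no pair of genotypes on chow for 8 weeks. A genotype difference at 8 weeks therefore cannot be told apart from one that the diet brings out.

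The insulin receptor, encoded by Insr, is a tyrosine kinase that phosphorylates docking proteins when insulin binds. Insulin receptor substrate 1 (Irs1) is one of those docking proteins and recruits phosphatidylinositol 3-kinase, which through AKT raises glucose uptake and lipid synthesis and holds back lipolysis in adipocytes. Mice that lack 1 copy of both genes are an established model of insulin resistance. The genes are deleted in every tissue, so a difference in adipocytes need not arise in adipocytes.

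No probe set passed an adjusted p under 0.01 in limma. The methods of the study keep the probe sets called by both limma and SAM at a false discovery rate of 1%, and that rule called none either. Levels are log2 values after RMA (robust multi-array average) normalization, and a difference is DW8 minus EW8 on that scale, where 1 is a 2-fold change. Of 45037 probe sets, 0 (0%) were called at 0.01 and 0 (0%) at 0.05 by limma, and SAM called 0. The smallest adjusted p was 0.0952. At an unadjusted p under 0.05 there were 1859 probe sets (4.13%), 922 higher (2.05%) and 937 lower (2.08%) in DW8. Only 11 probe sets had means that differed by more than 1 either way. The median standard error of a difference was 0.103 and the median half-width of its 95% confidence interval was 0.22. For 98.8% of probe sets the whole interval, unadjusted for the number of tests, lay within 1 either way. All genes named below are therefore described by their values, and none of them was called in this comparison unless another one is named. The levels of all 5 DW8 mice lay above or below those of all 6 EW8 mice for 167 probe sets (0.371%), 96 above (0.213%) and 71 below (0.158%).

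The arrays resembled each other closely, with correlations between pairs of mice of 0.979 to 0.996 over all probe sets, and 2 EW8 mice stood apart. EW8 mouse 5 had correlations of no more than 0.987 with any other mouse and lay alone at the end of the first principal component, which held 32.0% of the variance. In that mouse 398 genes were more than 1 below the median of the other mice. EW8 mouse 6 lay alone on the second component (16.4%), with 237 genes more than 1 above that median. Markers placed the preparations as adipocytes. Adipoq and Fabp4, which encode adiponectin and the adipocyte fatty acid binding protein, were at 14.60 to 14.69 and 14.76 to 14.82 in DW8 and at 14.53 to 14.66 and 14.72 to 14.82 in EW8, among the brightest probe sets of the array. Macrophage markers (5 of 5 measured) averaged 9.94 to 10.18 in DW8 and 9.77 to 11.16 in EW8, and T cell markers (3 of 3) averaged 4.76 to 5.06 and 4.78 to 5.18, below the array medians of 5.51 to 5.58. The parts that macrophages, mesothelium, preadipocytes and endothelium in the preparations play in any value below were not tested.

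Insr, the first targeted gene, was lower on average in DW8. Its brightest probe set, on chromosome 8, read 9.72, 9.50, 9.61, 9.41 and 9.17 in DW8 mice 1 to 5. It read 9.66, 10.20, 10.31, 10.35, 9.34 and 10.41 in EW8 mice 1 to 6. EW8 mice 1 and 5 lay within the DW8 range and the other 4 EW8 mice lay above all DW8 mice, so the groups overlapped. The means were 9.48 ± 0.21 in DW8 (SD, n = 5) and 10.04 ± 0.44 in EW8 (SD, n = 6). The difference was -0.56 (SE 0.19, 95% interval -0.97 to -0.15), a level 0.678 times that of EW8, and it did not pass (limma adjusted p = 0.985). An exact two-sided permutation test of this 1 probe set over all arrangements of the mice gave p = 0.0368, against a smallest possible p of 0.00216. Without EW8 mouse 5, the lowest of the EW8 mice, the difference was -0.70. A dim Insr probe set read 3.96 to 4.18 in DW8 and 4.18 to 4.33 in EW8 (difference -0.18), and another read 4.47 to 5.19 in DW8 and 4.57 to 5.06 in EW8 (difference -0.04). Both dim probe sets lie below the median of the array.

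The level of Insr was also measured in the other pairs of genotypes. After 16 weeks of Western diet the brightest probe set averaged 9.47 ± 0.27 in DW16 (SD, n = 9) and 10.50 ± 0.46 in EW16 (SD, n = 8), a difference of -1.03 (SE 0.17). After 16 weeks of chow it averaged 9.29 ± 0.28 in DC16 (SD, n = 5) and 10.17 ± 0.15 in EC16 (SD, n = 5), a difference of -0.88 (SE 0.13). Neither passed alone (limma adjusted p = 0.152 and 0.157). The mean of these 2 differences, fitted in mice that are not in the 8-week comparison, was -0.96 (SE 0.13) and passed (limma adjusted p = 0.000933). The contrast of the 8-week with the 16-week difference on Western diet was 0.47 (SE 0.27) and did not pass (limma adjusted p = 0.731).

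Irs1, the other targeted gene, did not differ by more than its spread. Its probe set, on chromosome 1, read 10.97, 10.77, 10.60, 11.13 and 11.18 in DW8 mice 1 to 5. It read 10.86, 11.50, 11.93, 11.23, 10.24 and 10.76 in EW8 mice 1 to 6. The DW8 mice all lay inside the range of the EW8 mice. The means were 10.93 ± 0.25 in DW8 (SD, n = 5) and 11.09 ± 0.60 in EW8 (SD, n = 6), a difference of -0.16 (SE 0.25, 95% interval -0.70 to 0.38). An exact two-sided permutation test gave p = 0.595. Leaving out EW8 mouse 3, the highest of all 11 mice, turned the difference to 0.01. In the other pairs the difference was -0.69 (SE 0.23) after 16 weeks of Western diet and -0.18 (SE 0.18) after chow, and neither passed. Apoe, which both groups lack, still gave a signal of 7.74 ± 0.46 in DW8 (SD, n = 5) and 7.43 ± 0.78 in EW8 (SD, n = 6), a difference of 0.32 (SE 0.34). Which exons its probe set reads was not examined, so that signal is no check of the null allele.

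**Figure D1:**
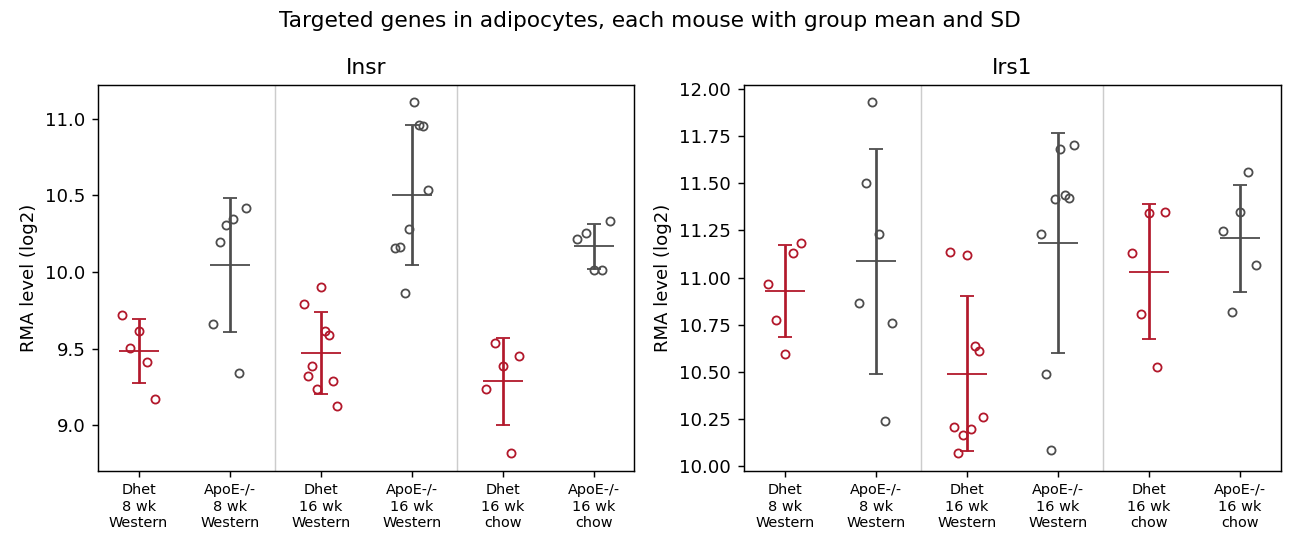
Log2 RMA level (vertical axis) of Insr (brightest probe set) and Irs1 in each mouse of the 6 groups, with the Dhet group left of its ApoE-/- counterpart; circles are mice, and bars are group means with SD. For Insr, 4 of 6 EW8 mice lay above all DW8 mice, and for Irs1 the DW8 mice lay inside the EW8 range.

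The 6 smallest p-values of the comparison belonged to probe sets on chromosomes 1 and 8, where the targeted genes lie, and 3 of them to 1 gene cluster. The share of all probe sets that lie on those chromosomes was not counted, so this is no result about the chromosomes. The Ugt1a cluster, Stk25 and Cers4 lie within 20 Mb of Irs1 or Insr, and Tomm40l lies outside both windows. The smallest, the third and the fourth were those of 3 probe sets assigned to the Ugt1a cluster, whose 8 listed genes share exons and cannot be told apart on this array. The cluster encodes UDP-glucuronosyltransferases, enzymes that attach glucuronic acid to bilirubin, steroids and drugs. The brightest of the probe sets read 13.00, 12.97, 12.68, 12.69 and 13.01 in DW8 mice 1 to 5, against 11.92, 11.86, 12.15, 12.09, 12.24 and 12.14 in EW8 mice 1 to 6. No DW8 mouse was as low as any EW8 mouse, and the difference was 0.80 (SE 0.10, limma adjusted p = 0.0952). The other probe sets of the cluster differed by 0.77 (SE 0.11) and 0.80 (SE 0.11), with no overlap of the groups in either. In the 16-week mice the 3 differences were 0.37, 0.60 and 0.66 on Western diet and 0.72, 0.77 and 1.12 on chow, given in the order of the probe sets above. The largest of these (1.12, chow) was the 1 probe set of 45037 (0.00222%) called in DC16 against EC16 (limma adjusted p = 0.007). The count was 0 with the replicate block, in 1 fit over all 7 groups and without any 1 mouse other than EC16 mouse 3, whose removal gave 1 call.

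Stk25 had the second smallest p. It encodes a serine/threonine kinase of the sterile-20 family that coats lipid droplets in liver cells. Its probe set on chromosome 1 read 7.70, 7.62, 7.49, 7.72 and 7.80 in DW8 mice 1 to 5, against 8.20, 8.33, 8.35, 8.22, 8.29 and 8.09 in EW8 mice 1 to 6. The DW8 mice were all below the EW8 mice, by a mean of 0.58 (SE 0.08, limma adjusted p = 0.104). The same gene differed by -0.77 (SE 0.25) after 16 weeks of Western diet and by -0.60 (SE 0.11) after chow. Tomm40l, which encodes a paralog of the import channel of the mitochondrial outer membrane, also lies on chromosome 1 and read 6.46 to 6.70 in DW8 and 6.87 to 7.36 in EW8 (difference -0.55, SE 0.09). In the 16-week mice Tomm40l differed by 0.25 on Western diet and 0.13 on chow, the opposite sign in both.

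Cers4, a ceramide synthase, had the smallest p among single genes with a higher mean. Its probe set of smallest p, on chromosome 8, read 8.91, 8.65, 8.33, 8.47 and 8.61 in DW8 mice 1 to 5, against 7.65, 7.98, 8.14, 7.50, 7.89 and 7.08 in EW8 mice 1 to 6. The groups did not overlap, and the difference of 0.89 (SE 0.17, 95% interval 0.52 to 1.27) was that of a level 1.85 times as high. The other Cers4 probe sets differed by 0.57 (SE 0.16) and 0.24 (SE 0.16), and overlapped. In the 16-week mice the first differed by 0.66 (SE 0.25) on Western diet and by 0.68 (SE 0.12) on chow.

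By the rule that names the 8 genes of smallest p in each direction, the others with a higher mean in DW8 were Lonrf2 (difference 0.50), Zfhx4 (0.41), Sntb1 (0.59), Pacsin3 (0.38), a dim probe set of Lox (0.33), Ldah (0.32) and Oxct1 (0.36). Oxct1 encodes the enzyme that activates ketone bodies for oxidation, and read 11.87 to 12.12 in DW8 and 11.31 to 11.77 in EW8. Ldah encodes a hydrolase of the lipid droplet, and Lox crosslinks collagen. The others with a lower mean were Cdc42 (difference -0.38), which encodes a small GTPase of the cytoskeleton, Ddx60 (-0.49), Casp2 (-0.31), Sostdc1 (-0.38), Mpzl1 (-0.49) and Mtch2 (-0.44). Like that of Lox, the probe sets of Lonrf2, Zfhx4, Ldah, Ddx60, Sostdc1 and Mtch2 were dim, with both group means below the array medians. Casp2, which encodes an initiator caspase, read 7.31 to 7.60 in DW8 and 7.69 to 7.88 in EW8, and differed by -0.39 and -0.43 in the 16-week mice on Western diet and chow. In the chow pair Lox and Tomm40l had the opposite sign, and the other genes named by this rule had the same sign, with sizes from 0.01 (Sostdc1) to 0.68 (Cers4). In the 16-week Western pair Lonrf2, Zfhx4, Sntb1, Lox, Cdc42, Sostdc1 and Tomm40l had the opposite sign.

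**Figure D2:**
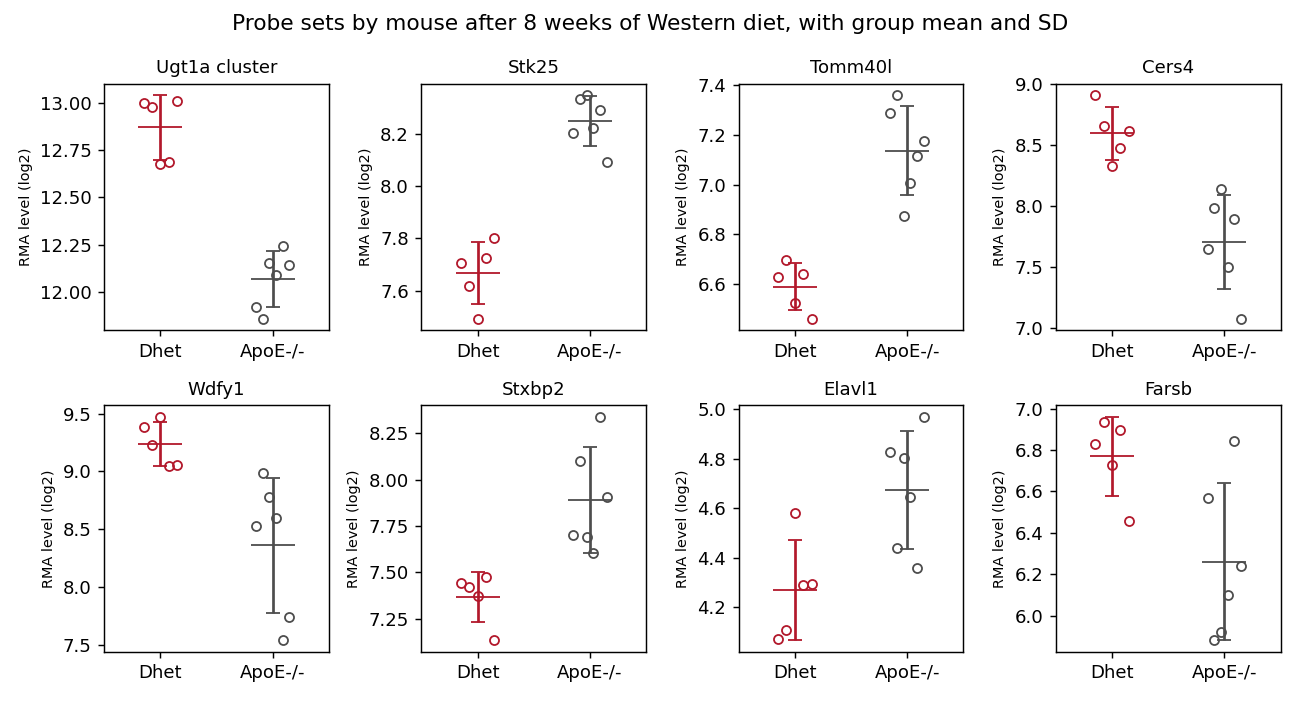
Log2 RMA level (vertical axes) of 8 probe sets in each mouse after 8 weeks of Western diet, 5 Dhet mice on the left and 6 ApoE-/- mice on the right of each panel; circles are mice, and bars are means with SD. The groups did not overlap for the Ugt1a cluster, Stk25, Tomm40l, Cers4, Wdfy1 and Stxbp2, and overlapped for Elavl1 and Farsb.

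The genes that lie beside the targeted genes were then counted, in windows of 20 Mb on either side. Each deleted allele is inherited together with the DNA around it, so that in these groups the deletion and its flanking DNA cannot be told apart. The strain of origin of that DNA was not examined and values of single probes were not used, so near the targets a difference in RNA level and one in how the RNA binds the probes cannot be told apart. Around Insr, 21 of 273 probe sets (7.69%) reached an unadjusted p under 0.05, and around Irs1 31 of 519 (5.97%), against 4.08% of the probe sets outside both windows. Around Apoe, which is deleted in both groups, the count was 26 of 746 (3.49%). None was called. Within 30 measured genes of the targets, a window chosen after the values were seen, the counts were 10 of 52 (19.2%) for Insr, 18 of 136 (13.2%) for Irs1 and 3 of 94 (3.19%) for Apoe. Insr lies near the start of its chromosome, and its measured neighbours are all on 1 side. By gene, 8 of the 30 nearest measured neighbours of Insr (26.7%) and 13 of the 60 of Irs1 (21.7%) had such a probe set. For Apoe it was 3 of 60 (5%), and outside the Insr and Irs1 windows 1359 of 18414 genes (7.38%). Without EW8 mouse 5 the near counts were 9 of 52 (17.3%), 24 of 136 (17.6%) and 2 of 94 (2.13%), beside 5.96% elsewhere. Several of these probe sets read the same gene, so the counts are not of independent genes.

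The neighbours named here were chosen after their values were seen. Next to Insr, the 3 probe sets of Stxbp2, a syntaxin-binding protein of granule release in blood cells, were lower in every DW8 mouse than in any EW8 mouse. The brightest read 7.83 to 7.91 in DW8 and 8.11 to 8.57 in EW8, and the differences were -0.38 (SE 0.09), -0.31 (SE 0.08) and -0.52 (SE 0.13). They were -0.19 each in the chow pair and between -0.04 and 0.04 in the 16-week Western pair. Retn, the adipocyte hormone resistin, read 13.62 to 13.90 in DW8 and 13.84 to 14.10 in EW8 (difference -0.20, SE 0.07). It differed by -0.13 and -0.31 in the 16-week Western and chow pairs. Fcor, a corepressor of Foxo1 known from mouse adipocytes, read 8.23 to 8.75 in DW8 and 7.63 to 8.82 in EW8 (difference 0.43, SE 0.19). Its highest EW8 value was that of mouse 5, and in the 16-week pairs the gene differed by 1.53 on Western diet and 0.70 on chow. Elavl1, which encodes the RNA-binding protein HuR, differed by -0.41 (SE 0.13) in a dim probe set, and by -0.21 and -0.59 in the 16-week Western and chow pairs. The brightest Elavl1 probe set differed by -0.16 (SE 0.16) at 8 weeks and by -0.68 and 0.37 in those pairs, so the probe sets of this gene disagree. Cd209a and Cd209f, C-type lectins of dendritic cells and macrophages in mice, differed by -0.49 (SE 0.13) and -0.84 (SE 0.36). For Cd209f 8.00 to 8.33 was measured in DW8 and 8.18 to 10.74 in EW8, with the top value in EW8 mouse 6, and without that mouse the difference was -0.50.

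Near Irs1, Wdfy1, which encodes a protein that binds phosphatidylinositol 3-phosphate on endosomes, lies 6 measured genes away. Its brightest probe set read 9.38, 9.23, 9.48, 9.05 and 9.06 in DW8 mice 1 to 5, against 8.53, 8.98, 8.78, 8.60, 7.54 and 7.74 in EW8 mice 1 to 6. The groups did not overlap, with EW8 mice 5 and 6 lowest, and the difference was 0.88 (SE 0.24). It was 0.60 (SE 0.20) after 16 weeks of Western diet and 0.90 (SE 0.12) after chow. The other 4 Wdfy1 probe sets had differences of 0.06 to 0.70 at 8 weeks and of -0.86 to 0.13 in the 16-week Western pair, so there the probe sets disagree. Farsb, a subunit of phenylalanyl-tRNA synthetase 13 genes away, had a probe set at 6.46 to 6.94 in DW8 and 5.89 to 6.84 in EW8, a difference of 0.51 (SE 0.17). That probe set differed by 0.75 (SE 0.12) and 0.94 (SE 0.14) in the 16-week Western and chow pairs. The brighter probe sets of the same gene differed by 0.17 (SE 0.11), -0.13 (SE 0.11) and -0.21 (SE 0.09) at 8 weeks, so the probe sets of Farsb disagree. Kcne4, a regulatory subunit of potassium channels, differed by -0.43 (SE 0.16), and by -0.43 and -0.40 in the 16-week Western and chow pairs. Sp100, a nuclear body protein that interferon induces, read 7.08 to 7.35 in DW8 and 7.29 to 8.06 in EW8 (difference -0.45, SE 0.13). Des, the intermediate filament of muscle, differed by -0.48 (SE 0.13) in its brighter probe set and by -0.02 in the other, and the brighter differed by 0.17 and -0.37 in the 16-week Western and chow pairs. Utp14b differed by 0.48 (SE 0.13). Utp14b had a difference of 0.06 in the 16-week Western pair and -0.20 in the chow pair.

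The signs at 8 weeks were then set against those in the 16-week mice. Of the probe sets with an unadjusted p under 0.05 at 8 weeks, 15 of 21 (71.4%) in the Insr window and 22 of 31 (71.0%) in the Irs1 window had the same sign in the chow pair, against 934 of 1805 (51.7%) outside both windows. Over all probe sets, 6.27% had an unadjusted p under 0.05 in the chow pair. In the Apoe window the count was 9 of 26 (34.6%). In the 16-week Western pair the counts were 16 of 21 (76.2%), 24 of 31 (77.4%), 1078 of 1805 (59.7%) and 12 of 26 (46.2%) in the same order. An unadjusted p under 0.05 and the same sign were found in the chow pair for 10 of 31 (32.3%) near Irs1, 4 of 21 near Insr and 74 of 1805 (4.10%) elsewhere. In the 16-week Western pair these counts were 7 of 31 (22.6%) near Irs1, 3 of 21 (14.3%) near Insr and 187 of 1805 (10.4%) elsewhere. These are descriptions, and the difference between windows was not tested.

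A mean of the 3 genotype differences, added after the values were seen, was fitted over all 6 groups. It called 5 of 45037 probe sets (0.0111%), which were those of Farsb (mean difference 0.73, SE 0.09), Insr (-0.82, SE 0.11), Wdfy1 (0.79, SE 0.13), the Ugt1a cluster (0.72, SE 0.12) and a probe set with no gene symbol (0.32, SE 0.05). Their limma adjusted p-values ran from 2.48e-05 to 0.00839. Each named gene or cluster was called by 1 probe set only, and its other probe sets did not pass. In the same fit the limma adjusted p was 0.495 for the brightest Ugt1a probe set and 0.0236 for the remaining one. For the other probe sets it was 0.585 and 0.968 (Insr), 0.594 to 0.803 (Farsb) and 0.702 to 0.914 (Wdfy1). The mean of the 2 differences at 16 weeks alone called 2 probe sets (0.00444%), those of Insr and Farsb.

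**Figure D3:**
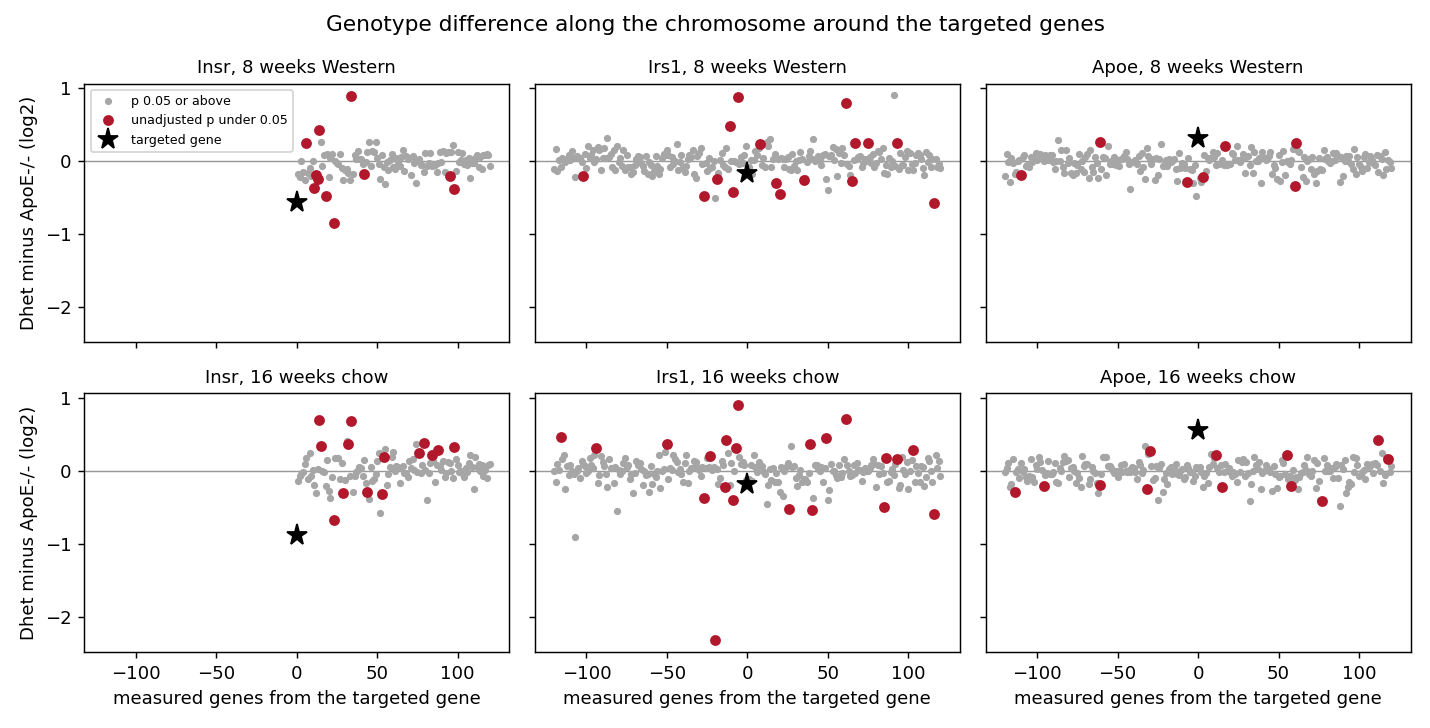
Dhet minus ApoE-/- difference in log2 level (vertical axis) for the brightest probe set of each measured gene within 120 genes of Insr, Irs1 and Apoe, in chromosome order (horizontal axis), at 8 weeks of Western diet (upper row) and 16 weeks of chow (lower row). Red points have an unadjusted p under 0.05 and the star is the targeted gene; near Insr the red points at 8 weeks lie mostly within 35 genes of the star, and near Irs1 they are spread further.

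The insulin signaling genes beyond the targets moved little. Of 9 measured genes of the receptor, its docking proteins and insulin, Insr alone had an unadjusted p under 0.05, and the median difference was -0.04, beside 0.01 over 18193 genes, of which 4.5% had such a p, 2.12% higher and 2.37% lower. Irs2, the second docking protein of adipocytes, read 9.49 to 10.45 in DW8 and 9.21 to 10.39 in EW8 (difference 0.26, SE 0.24). In the PI3K and AKT core (18 measured, median 0.06), 1 gene was higher and 1 lower at an unadjusted p under 0.05. The higher was Pik3r1, the p85alpha regulatory subunit of PI3K, at 11.12 to 11.39 in DW8 and 9.80 to 11.10 in EW8 (difference 0.47, SE 0.20). EW8 mouse 5 held the lowest value, and without it the difference was 0.27. The lower was Pik3r2, the p85beta subunit, at 7.33 to 7.50 in DW8 and 7.51 to 7.84 in EW8 (difference -0.19, SE 0.07). Neither of these overlapped between the groups. Akt2, the main AKT kinase of adipocytes, differed by 0.05 (SE 0.10), and Foxo1, which AKT keeps out of the nucleus, by 0.06 (SE 0.15).

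Among 18 brakes on insulin signaling the median was -0.07, with 1 gene higher and 2 lower at an unadjusted p under 0.05. Socs1, which binds the receptor and marks docking proteins for degradation, read 5.96 to 6.28 in DW8 and 6.22 to 6.82 in EW8 (difference -0.33, SE 0.12). Grb10, an imprinted adaptor that inhibits the receptor kinase, read 11.57 to 11.87 in DW8 and 11.10 to 11.69 in EW8 (difference 0.28, SE 0.11). Retn was the other lower gene. In the IGF axis (11 measured, median -0.01) Igf2 was lower, at 7.38 to 7.75 in DW8 and 7.77 to 8.03 in EW8 (difference -0.25, SE 0.08), with no overlap. The mTOR complexes (15 measured) had no gene at that p and a median of 0.06.

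Metabolic lists had 0 to 2 members each at an unadjusted p under 0.05. The list of de novo lipogenesis, the synthesis of fatty acids from carbohydrate, also holds enzymes that modify fatty acids, such as Fads2 and Elovl6. It had lower means in DW8 for 15 of 17 measured genes, beside 8732 of all 18193 genes, with a median of -0.24. Fads2 and Elovl6 were the 2 of the 17 with an unadjusted p under 0.05, beside 2.37% of all genes lower at that p. Fads2, the delta-6 desaturase, read 6.42, 7.43, 6.99, 7.07 and 6.20 in DW8 mice 1 to 5, against 8.28, 7.91, 7.34, 7.14, 7.75 and 7.92 in EW8 mice 1 to 6. The groups overlapped only at DW8 mouse 2, and the difference was -0.90 (SE 0.24, 95% interval -1.43 to -0.38). Elovl6, which elongates fatty acids from 16 to 18 carbons, read 10.56 to 12.56 in DW8 and 11.89 to 13.22 in EW8 (difference -0.76, SE 0.33), with DW8 mouse 1 lowest, and without that mouse the difference was -0.47. Fatty acid synthase (Fasn) and acetyl-CoA carboxylase (Acaca) differed by -0.20 (SE 0.13) and -0.24 (SE 0.15). Scd1, the stearoyl-CoA desaturase, was near the top of the scale at 14.85 to 14.89 in DW8 and 14.77 to 14.88 in EW8. Averaged over the 17 genes, the list was at 11.41 in DW8 mouse 1 and 11.82 to 12.13 in the other DW8 mice, against 11.90 to 12.45 in EW8. Without EW8 mouse 5 the list had 1 lower gene at that p, and without EW8 mice 5 and 6 it had 4. The median of the same list was -0.15 in the 16-week Western pair and 0.44 in the chow pair.

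Glycogen synthase 2 (Gys2) read 7.31, 8.15, 7.24, 7.68 and 7.72 in DW8 mice 1 to 5, against 9.01, 8.80, 7.92, 7.86, 8.47 and 7.94 in EW8 mice 1 to 6, a difference of -0.71 (SE 0.23). It differed by 0.45 and 1.15 in the 16-week Western and chow pairs. The list of glucose uptake and glycogen (23 measured) had a median of -0.03, with 1 gene higher and 1 lower at an unadjusted p under 0.05. The insulin-responsive glucose transporter Slc2a4 differed by -0.05 (SE 0.11). Pkm, pyruvate kinase, differed by -0.45 (SE 0.16) and was the 1 lower gene of 17 in glycolysis. In lipolysis and lipid droplet genes (15 measured, median 0.16) 1 gene was higher. That was Pde3b, the phosphodiesterase through which insulin restrains lipolysis, at 13.12 to 13.39 in DW8 and 12.46 to 13.15 in EW8 (difference 0.41, SE 0.13). The triglyceride lipase Pnpla2 differed by 0.18 (SE 0.12) and hormone-sensitive lipase Lipe by 0.14 (SE 0.17). Fatty acid oxidation (18), branched-chain amino acid breakdown and the TCA cycle (23) and oxidative phosphorylation (24) had no gene at an unadjusted p under 0.05, with medians of 0.10, 0.04 and -0.03.

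The adipokine list (13 measured, median 0.01) also holds Mest, which is not itself an adipokine. In that list Mest was higher and Retn lower at an unadjusted p under 0.05. Mest, an imprinted gene whose level in mouse fat follows fat expansion, read 11.21, 10.83, 11.29, 10.59 and 11.31 in DW8 mice 1 to 5, against 10.32, 9.87, 11.69, 9.75, 9.92 and 8.56 in EW8 mice 1 to 6. The highest of all 11 values was that of EW8 mouse 3 and the lowest that of EW8 mouse 6, so the groups overlapped at a mean difference of 1.03 (SE 0.41, 95% interval 0.15 to 1.91). Leptin (Lep) read 10.79 to 12.11 in DW8 and 9.73 to 11.42 in EW8 (difference 0.62). Hsd11b1, which regenerates active glucocorticoid, read 9.45 to 9.70 in DW8 and 9.47 to 10.54 in EW8 (difference -0.48, SE 0.15). Vegfa read 10.04 to 10.92 in DW8 and 9.74 to 10.41 in EW8 (difference 0.47, SE 0.17), with DW8 mouse 5 alone inside the EW8 range.

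Endothelial genes had the largest share of members at an unadjusted p under 0.05 of the 58 lists. Of 18 measured genes, 8 were lower and 0 higher at that p, and the median was -0.22, beside 2.37% of all genes lower. Emcn, a sialomucin of capillary and venous endothelium, read 8.76, 8.79, 9.26, 8.79 and 8.92 in DW8 mice 1 to 5, against 9.32, 9.12, 9.24, 8.98, 9.73 and 9.89 in EW8 mice 1 to 6 (difference -0.48, SE 0.16). Esam, an adhesion molecule of endothelial junctions, differed by -0.37 (SE 0.12), Tie1, an endothelial receptor kinase, by -0.33 (SE 0.12) and Egfl7 by -0.26 (SE 0.09). Flt1, Vwf, Eng and Ptprb had differences of 0.11, 0.08, 0.04 and 0.07. The 4 defining markers Pecam1, Cdh5, Kdr and Emcn averaged 8.74 to 9.24 in DW8 and 9.11 to 9.49 in EW8. In bulk RNA, fewer endothelial cells and less of this RNA in each cell cannot be told apart. Without EW8 mouse 5, 10 of the 18 were lower, with a median of -0.23, and without EW8 mice 5 and 6 it was 4 of the 18, with a median of -0.22. In the 16-week Western pair 5 of the 18 were lower at that p, beside 9.21% of all genes, and the median was -0.44. Lists of other kinds had medians near or below that in the same pair, such as immediate early genes (-0.56) and extracellular matrix (-0.47). Others were above 0, such as serine synthesis and ATF4 targets (0.26), and the median over all genes was -0.004. A low median there is thus not particular to endothelial genes. In the chow pair 0 of the 18 were lower, beside 3.31% of all genes, and the median was -0.09. The list of preadipocytes and stroma (17 measured) had 2 lower genes, Rgs5 and Pdgfb, both of which belong to capillaries and their pericytes, and a median of -0.08, which was 0.05 without EW8 mice 5 and 6. The difference in Rgs5 was -0.26, and -0.17 without DW8 mouse 4.

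Interferon response and antigen presentation genes came next by count, with 6 of 29 lower, beside 2.37% of all genes, 0 higher and a median of -0.16. Oas1a, which senses double-stranded RNA, read 8.71, 8.73, 8.66, 8.69 and 8.46 in DW8 mice 1 to 5, against 8.86, 8.82, 8.88, 8.98, 9.32 and 9.17 in EW8 mice 1 to 6, with no overlap (difference -0.36, SE 0.10). Ifit3, Oasl2 and Irf7 differed by -0.45 (SE 0.15), -0.35 (SE 0.14) and -0.34 (SE 0.14). EW8 mice 5 and 6 held the highest values of Oas1a, and without EW8 mouse 5 the list had 4 of 29 lower and a median of -0.08. Without both it had 3 lower and a median of -0.06. In the 16-week Western pair 6 of the 29 were lower, beside 9.21% of all genes, and 1 higher at that p, with a median of -0.28. In the chow pair 10 of the 29 were lower, beside 3.31% of all genes, and 0 higher, with a median of -0.18. Among the antigen presentation members, B2m and Cd74 differed by 0.04 and -0.03. Over the whole list at 8 weeks 25 of the 29 genes had lower means, beside 8732 of all 18193 genes. The highest difference in the list was 0.04. Macrophage genes (25 measured) had none at an unadjusted p under 0.05 and a median of -0.05. Without EW8 mice 5 and 6 the macrophage median was 0.12. In that run 5 of the 25 were higher and 0 lower at that p, beside 686 higher among all 18193 genes.

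The lists of other cell types had 0 to 2 genes each at an unadjusted p under 0.05. In muscle genes (15 measured) Acta1, skeletal muscle actin, read 10.69, 10.54, 10.29, 10.62 and 11.79 in DW8 mice 1 to 5 and 9.75 to 10.60 in EW8 (difference 0.71, SE 0.24, and 0.46 without DW8 mouse 5), while Ckm and Myh4 were dim at 4.88 to 5.34 and 3.83 to 4.09 in DW8. Of 22 measured genes of ovary, oviduct and other epithelium, 2 were higher at that p, beside 2.12% of all genes. Ovgp1, an oviduct glycoprotein, was dim at 4.87 to 5.28 in DW8 and 4.35 to 4.94 in EW8 (difference 0.42). The other was Cyp11a1 (difference 0.17). Inha, an ovarian inhibin subunit, read 4.06 to 4.51 in DW8 and reached 7.73 in 1 EW8 mouse. The replication genes Mcm6 and Mcm5 and the nucleotide reductase Rrm1 were the 3 of 24 proliferation genes at that p, with differences of -0.30, -0.36 and -0.26. Of all genes 2.37% were lower at that p.

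**Figure D4:**
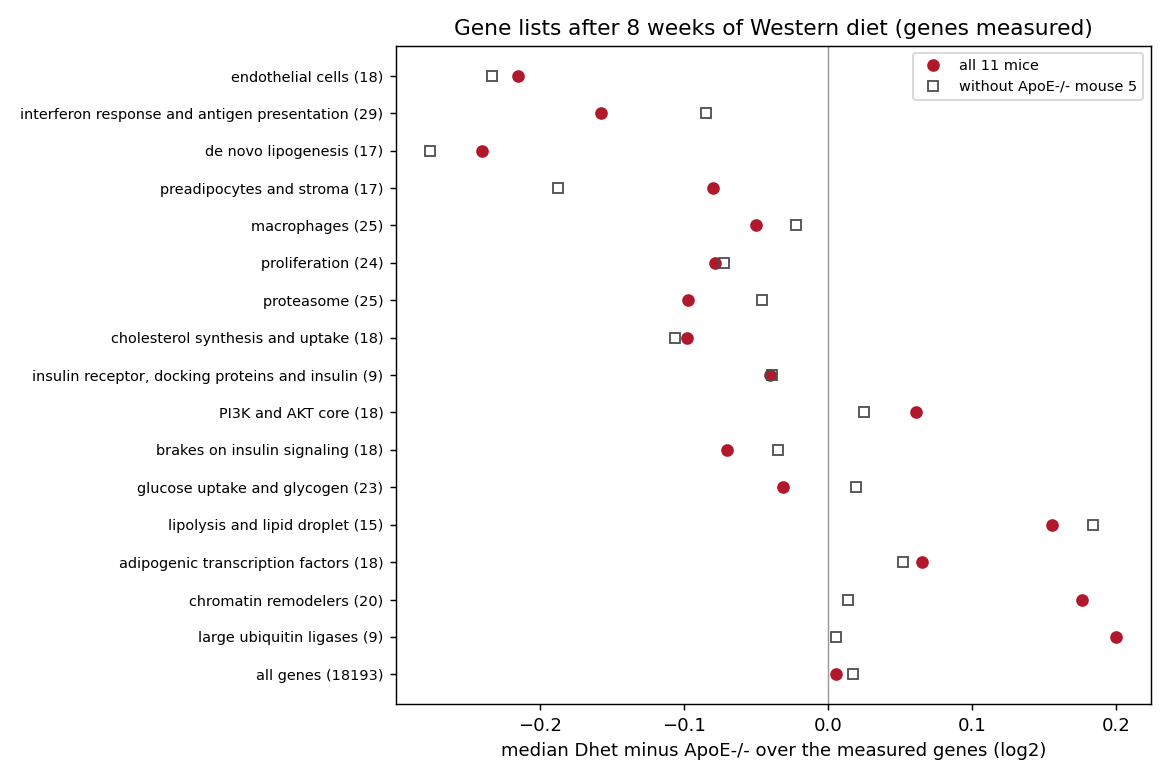
Median DW8 minus EW8 difference in log2 level (horizontal axis) over the measured genes of 16 lists and over all 18193 genes, with all 11 mice (filled circles) and without EW8 mouse 5 (open squares); the number of genes is in parentheses. The endothelial median was -0.22 and -0.23, and those of chromatin remodelers and large ubiquitin ligases were 0.01 without that mouse.

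EW8 mouse 5 moved some lists by itself. Chromatin remodelers (20 measured) had higher means in DW8 for 19 genes and a median of 0.18, and large ubiquitin ligases (9 measured) for all 9 and a median of 0.20. Their mean level was 8.66 and 9.34 in EW8 mouse 5, against 9.52 to 9.83 and 10.38 to 10.62 over the other 10 mice, and without it both medians were 0.01. The proteasome (25 measured) had lower means in DW8 for all 25 genes and a median of -0.10, with 11.46 to 11.58 in DW8 and 11.48 to 11.87 in EW8, where mouse 5 was highest. Its median was -0.05 without that mouse.

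Some genes varied between mice of 1 genotype by more than the genotypes differed. The clock output gene Dbp read 9.87, 8.49, 11.67, 11.57 and 11.65 in DW8 mice 1 to 5, against 8.15, 10.61, 8.68, 9.12, 9.09 and 11.63 in EW8 mice 1 to 6. DW8 mice 3, 4 and 5 and EW8 mouse 6 were high in Dbp, Per3, Per2 and Tef, and the same 4 mice were lowest in Arntl, a core activator of the clock whose level runs opposite to Dbp in mouse tissues. Arntl read 8.40, 8.47, 7.55, 7.57 and 6.94 in DW8 and 8.90, 8.15, 8.46, 8.53, 8.31 and 7.73 in EW8. The mice were killed within one morning window, and the order of killing is not given in the sources used here. Of 18 clock genes 0 had an unadjusted p under 0.05, at a median difference of 0.16. EW8 mouse 6 was also alone in the acute-phase gene Saa3 (12.27, against 8.60 to 10.64 in the other mice) and in the immunoglobulin gene Ighm (13.32, against 10.32 to 12.02).

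**Figure D5:**
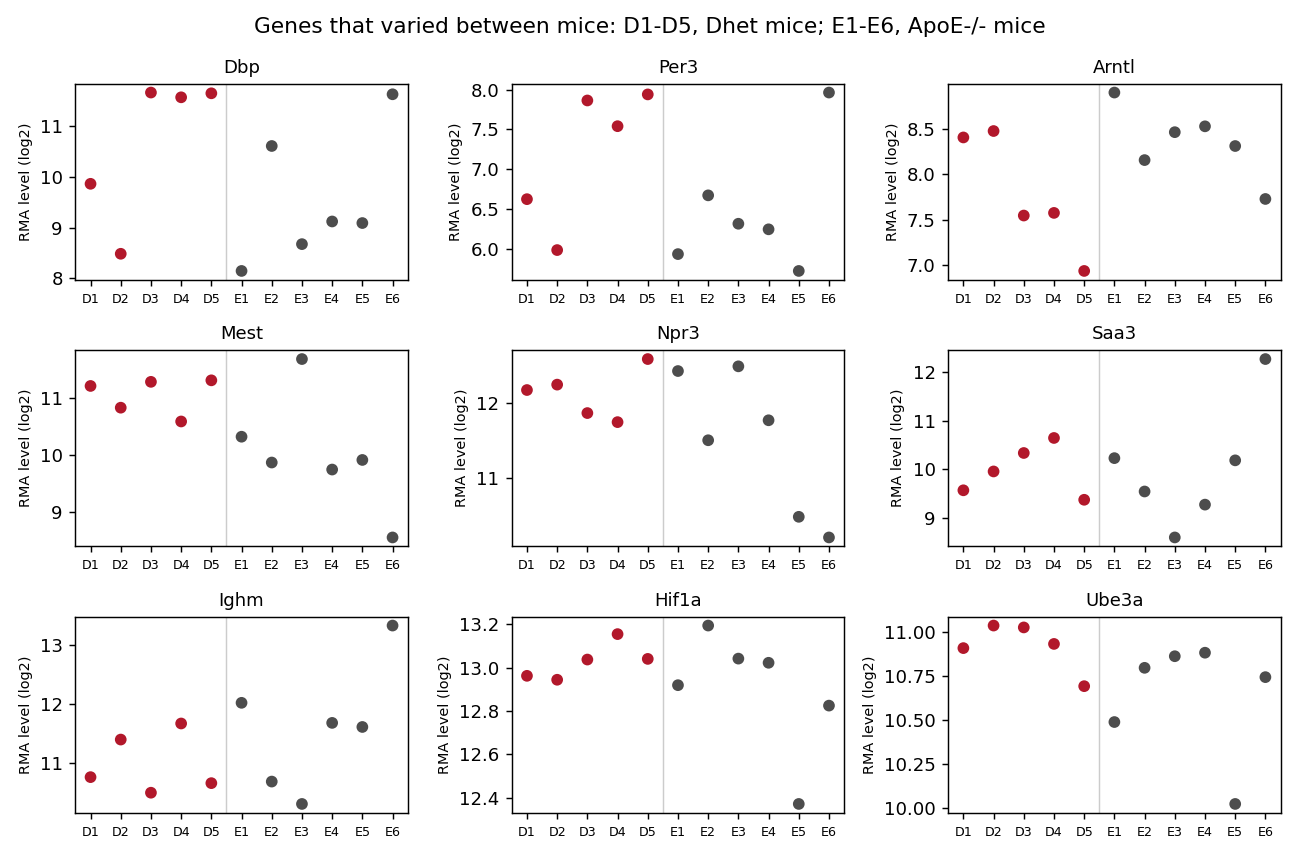
Log2 RMA level (vertical axes) of 9 genes in each of the 11 mice, DW8 mice 1 to 5 (D1 to D5) left of EW8 mice 1 to 6 (E1 to E6). D3, D4, D5 and E6 are high in Dbp and low in Arntl; E6 is highest in Saa3 and Ighm and lowest in Mest, and E5 is lowest in Hif1a and Ube3a.

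The genotype difference at 8 weeks was also set against that at 16 weeks of Western diet in 1 limma fit. At an adjusted p under 0.01, 0 of 45037 probe sets (0%) were called, and 3123 (6.93%) had an unadjusted p under 0.05. The 5 single genes of smallest p were Rel, Bad, Prpf31, Slc23a4 and Ppp1r14a, each with an adjusted p of 0.712. Rel, a subunit of NF-kB, differed by 0.10 at 8 weeks and -0.73 at 16 weeks, and Bad, which promotes apoptosis, by -0.28 and 0.64. Ppp1r14a, an inhibitor of myosin phosphatase in smooth muscle, differed by -0.70 and 0.53. Among the 16-week Western mice, 7 of 9 DW16 and 3 of 8 EW16 arrays have a narrower range of values than the others, while none of the 8-week arrays does. DW16 against EW16 alone gave 0 calls (0%), and 6592 probe sets (14.6%) had an unadjusted p under 0.05.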

How the data were processed

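The authors hybridised adipocyte RNA of 45 female mice to Affymetrix MG430-2.0 arrays, 1 per mouse, scanned them with global scaling and normalized them with RMA; the deposited values are log2 levels, 1 per probe set. The RMA version, and if the 45 arrays were processed jointly, is not given in the sources used here. All columns of the table were used (0 left out). Of 45037 probe sets, 34945 carry 1 gene symbol, 932 several and 9160 none, by the platform annotation supplied with the data. Where 1 value a gene was needed, the probe set brightest on average was taken. The order of genes along a chromosome came from RefSeq annotation of GRCm38.p6, used for names and neighbours only.

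DW8 and EW8 were compared by a moderated linear model (limma 3.58.1 under R 4.3.3); p-values were adjusted by Benjamini-Hochberg for all 45037 tests, called at 0.01, with no filter. SAM was written anew (100 permutations, q under 0.01). Scripts were tested on simulated data. Named genes are the 8 of smallest p in each direction, the targeted genes, up to 4 of smallest p in each of 58 lists (1006 of 1109 entries measured), the markers and the 5 of smallest p in the contrast of 8 with 16 weeks. The members and lists were chosen with earlier results of these data known. Mice carry replicate numbers, but nothing ties equal numbers to a shared litter or day. The number of arrays limits the precision. Alternatives were other variance models, array weights, a filter on level, further scalings, other thresholds, the replicate block and each mouse left out. Sequences are not shown.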

Additional observations from a re-analysis of the deposited data

Results flagged for a closer look

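In 14 of 214 groups of single probe sets examined, 1 mouse lay far from the others of its group, measured as the gap to its nearest neighbour over the range of the group. Chance flags about 1 in 20 groups. In EW8 the mice and levels were mouse 3 for Ldah (4.34, the others 4.55 to 4.65), mouse 1 for Oxct1 (11.31, the others 11.67 to 11.77), mouse 6 for the second Cers4 probe set (5.96, the others 6.54 to 6.88), mouse 6 for a dim Speg probe set (4.63, nearest 4.43), mouse 1 for Igf2 (8.03, nearest 7.84), mouse 6 for Pik3r2 (7.84, nearest 7.58), mouse 5 for Pik3r1 (9.80, nearest 10.87) and mouse 1 for Bnip3 (12.96, nearest 13.46). In DW8 they were mouse 2 for the bright Farsb probe set (10.39, nearest 10.23), mouse 4 for the second Sp100 probe set (6.17, nearest 6.64), mouse 5 for Spata3 (4.25, nearest 3.90), mouse 5 for Oas1a (8.46, nearest 8.66), mouse 4 for Rgs5 (11.55, nearest 11.95) and mouse 5 for Acta1 (11.79, nearest 10.69).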

How the results depend on the processing

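The count of 0 called probe sets in DW8 against EW8 held under every alternative run, including SAM, array weights, the further scalings, the replicate block and each mouse left out (0 to 0), and the lists held 0 called genes throughout. At an adjusted p under 0.05, array weights called 2 probe sets and the trended robust fit 1. The count at an unadjusted p under 0.05 was 747 of the 22518 probe sets above the median level. Over all probe sets it ran from 822 with 1 fit over all 7 groups to 2541 with array weights, and from 1139 (without DW8 mouse 5) to 2710 (without EW8 mouse 5) with 1 mouse left out, beside 1859. Without EW8 mice 5 and 6, an alternative chosen after seeing the data, it was 2861. Insr kept its sign throughout and ran from -0.70 (without EW8 mouse 5) to -0.48 (without DW8 mouse 5) with 1 mouse left out, and was -0.477 when the SD of the arrays was a covariate. Irs1 ran from -0.328 to 0.0102 with 1 mouse left out and changed sign only without EW8 mouse 3. A dim Insr probe set ran from -0.155 to 0.024 with 1 mouse left out and changed sign (0.024, 0.00106 and 0.0104) without DW8 mouse 1, DW8 mouse 4 and EW8 mouse 5. The other 104 single probe sets followed kept their sign under the alternatives run. Most were followed because their p in this comparison was small, and the alternatives refit the same mice. A kept sign is therefore no independent check of them. With 1 fit over all 7 groups, DW16 against EW16 called 281 probe sets in place of 0. The 1 probe set of DC16 against EC16 was lost (0 called) under the replicate block, in the fit over all 7 groups and in all but 1 of the runs without 1 mouse, which gave 0 to 1. The cause was not tested. The contrast of 8 with 16 weeks gave 0 under all its alternatives.

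Same-numbered mice of DW8 and EW8 had correlations of their deviations of -0.34 to 0.19 (5 pairs), with 0 of 10 mice best matched by their own number. In DW16 and EW16 the correlations of 8 pairs ran from -0.44 to 0.53, and 5 of 16 mice were best matched so. In DC16 and EC16 those of 5 pairs ran from -0.16 to 0.19, and 4 of 10 mice were. So few pairs cannot show if equal numbers share a litter or day. With the replicate block over mice 1 to 5, 1875 probe sets had an unadjusted p under 0.05, 0 were called, and Insr differed by -0.49.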
